A study of Mus musculus with 8 samples.

Results

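The 10 genes described here make, coat and break down the triglyceride stored in lipid droplets of muscle, and they were taken by name from the 43239 distinct gene names of the files. All 10 were found: the perilipins Plin2, Plin3, Plin4 and Plin5, the acyltransferases Dgat1 and Dgat2, and the lipolysis genes Pnpla2, Lipe, G0s2 and Abhd5. RNA of quadriceps muscle was sequenced from 8 female mice aged 6 months. Of these, 4 carried the genotype label Mss51-/- (KO) and 4 the label wild type (WT), with 1 library per mouse and no other agent or allele named. The values are FPKM, fragments per kilobase of transcript and per M (mega) mapped fragments.

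A muscle fibre stores fatty acids as triglyceride in droplets that lie beside its mitochondria. DGAT enzymes add the last fatty acid, perilipins cover the droplet and gate access to it, and lipases release the fatty acids in turn. ATGL, encoded by Pnpla2, takes the first fatty acid and hormone-sensitive lipase, encoded by Lipe, the next. The protein of Abhd5 activates ATGL and that of G0s2 inhibits it. The title of the series names muscle metabolism as the question, and these genes cover the fuel store of that metabolism.

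Mss51 itself went against the labels. It stood at 201 to 340 FPKM in the libraries labelled KO and at 22.9 to 37.0 FPKM in those labelled WT, so every direction given here is that of the labels. The files hold no counts. A rough estimate from genes with a single transcript put the depth at 37.1 to 59.0 M fragments per library. Muscle markers were abundant: Ckm averaged 10546 FPKM in libraries labelled KO and 11376 FPKM in those labelled WT. Myh4, the main myosin of fast fibres, was listed at 0 in every library, and Atp2a1 in all but KO replicate 2. KO replicate 1 stood apart from the other libraries labelled KO. Its summed FPKM of 12 slow and oxidative fibre markers was 2974, against 6329 to 6892 in KO replicates 2 to 4 and 2578 to 3199 in the libraries labelled WT. Fold changes and ratios of the genes are therefore given with and without it.

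In the libraries labelled KO, Plin3, Plin5 and Dgat2 stood higher by 1.54-, 1.86- and 1.61-fold, while the other 7 genes differed by less than 1.3-fold. None of the 10 genes passed an adjusted p of 0.05 over the 11878 genes tested with limma, all 8 libraries included. The background was 6 genes called higher (0.0505%) and 0 called lower (0.0%), with 328 genes lower at an unadjusted p under 0.05. At an unadjusted p under 0.05, 3 of the 10 genes were higher, beside 7.5% of all genes tested. Without KO replicate 1, Plin3, Plin5 and Dgat2 passed the adjusted test as higher (3 of 10). In that comparison 0.951% of all genes were called higher and 0.101% lower. KO replicate 1 was singled out from these same data, and it is the lowest library labelled KO for each of Plin3, Plin5 and Dgat2. Passing without it is therefore no independent support, and leaving out any other single library called none of the 10 genes. Over the 10 genes the median of the log2 fold changes was 0.17, and 8 were above 0. Over all genes tested the median was 0.02, and 54.4% were above 0. Rescaling each library to TPM put that overall median at -0.18, with Plin3 at 0.41, Plin5 at 0.69 and Dgat2 at 0.47, while Plin2, Dgat1, Pnpla2 and Abhd5 then lay below 0. That rescaling divides all genes of a library by the same sum, so the 10 genes and the median moved down together.

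**Figure D1:**
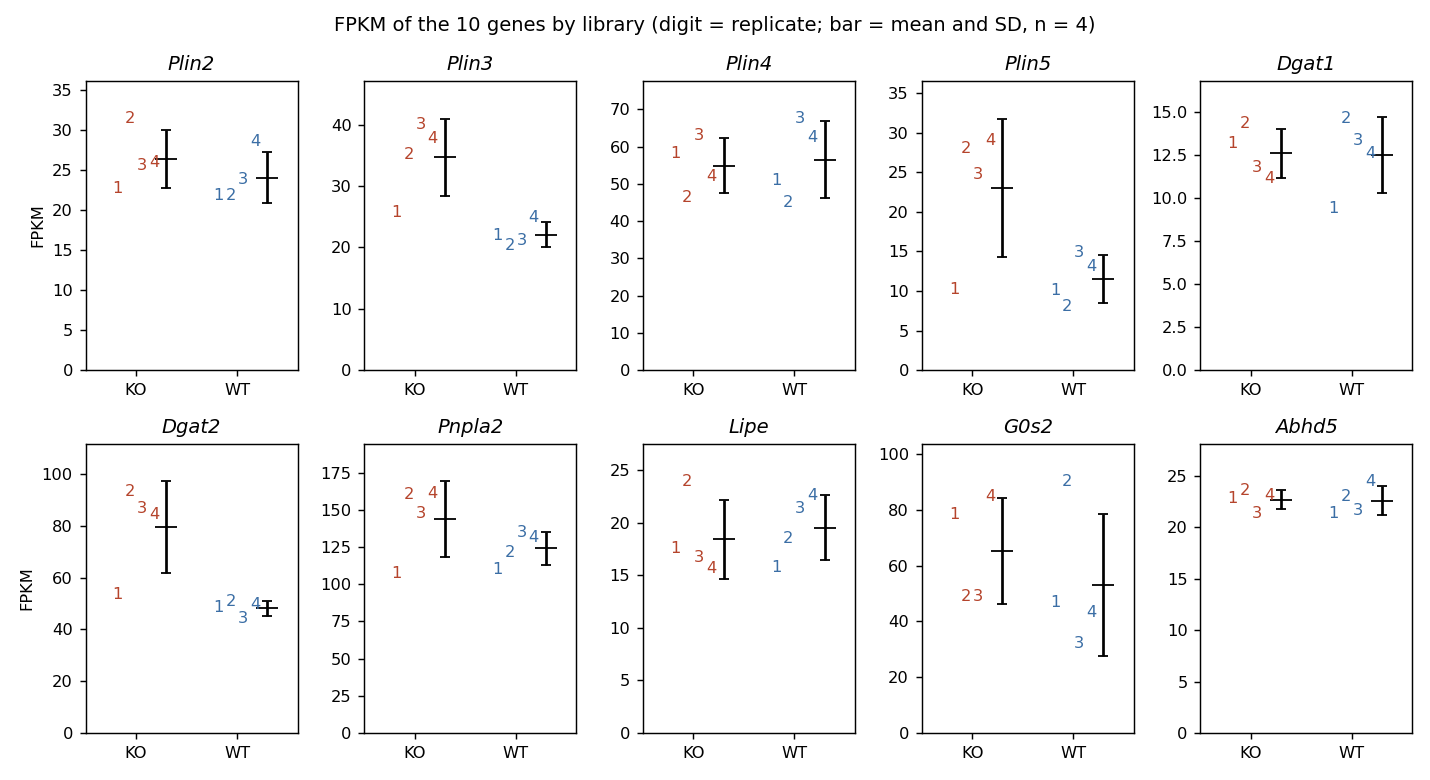
FPKM (vertical axes, from 0) of each gene in the 4 libraries labelled KO and the 4 labelled WT. Each digit is 1 library and gives its replicate number, and the bars are the mean and SD. For Plin3 and Dgat2 all libraries labelled KO lie above those labelled WT, and for Plin5 KO replicate 1 lies within the WT range.

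Among the coat proteins, Plin3 and Plin5 were the higher ones. Plin3 encodes a perilipin found in many tissues that moves from the cytosol to forming droplets. It stood at 25.7, 35.2, 40.1 and 37.7 FPKM in KO replicates 1 to 4, against 22.0, 20.3, 21.2 and 24.9 FPKM in WT replicates 1 to 4. Every library labelled KO was above every library labelled WT, with KO replicate 1 the lowest of its group. The means were 34.7 ± 6.28 FPKM in the libraries labelled KO and 22.1 ± 1.98 FPKM in those labelled WT (SD, n = 4). The log2 fold change was 0.62 (SE 0.14, limma adjusted p = 0.326), and without KO replicate 1 it was 0.76 (adjusted p = 0.0116).

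Plin5 encodes the perilipin of oxidative tissues, which tethers droplets to mitochondria. It stood at 10.1, 28.0, 24.7 and 29.1 FPKM in KO replicates 1 to 4, against 10.1, 7.98, 14.9 and 13.1 FPKM in WT replicates 1 to 4. KO replicates 2 to 4 exceeded every library labelled WT, while KO replicate 1 lay inside the WT range. The means were 23.0 ± 8.76 and 11.5 ± 3.07 FPKM in the libraries labelled KO and WT (SD, n = 4). The log2 fold change was 0.90 (SE 0.33, limma adjusted p = 0.424), and without KO replicate 1 it was 1.24 (adjusted p = 0.0334), a 2.36-fold difference.

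For Plin2 and Plin4 the groups overlapped. Plin2, the most widespread droplet coat, stood at 22.6, 31.4, 25.6 and 26.0 FPKM in KO replicates 1 to 4, against 21.8, 21.8, 23.8 and 28.5 FPKM in WT replicates 1 to 4. Here 1 library labelled KO was above the WT range. Its log2 fold change was 0.13, with a 95% interval of -0.14 to 0.41 (limma adjusted p = 0.749), and 0.20 without KO replicate 1 (adjusted p = 0.520). Plin4, a perilipin of adipose tissue and muscle, stood at 58.2, 46.3, 63.0 and 52.1 FPKM in KO replicates 1 to 4, against 50.9, 44.9, 67.5 and 62.5 FPKM in WT replicates 1 to 4. All libraries labelled KO lay within the WT range. The log2 fold change was -0.03, with a 95% interval of -0.36 to 0.30 (limma adjusted p = 0.962), and -0.06 without KO replicate 1 (adjusted p = 0.910).

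The make-up of the perilipin RNA varied between libraries, described here without a test. Plin4 supplied the largest share in every library, 40.0 ± 7.44% of the summed FPKM of the 4 perilipins in the libraries labelled KO and 49.3 ± 2.50% in those labelled WT (SD, n = 4). Plin5 made up 8.69, 19.9, 16.1 and 20.1% in KO replicates 1 to 4, against 9.64, 8.41, 11.7 and 10.2% in WT replicates 1 to 4. KO replicate 1 again lay with the libraries labelled WT. Plin3 made up 24.8 ± 1.90% in the libraries labelled KO and 19.6 ± 2.15% in those labelled WT.

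**Figure D2:**
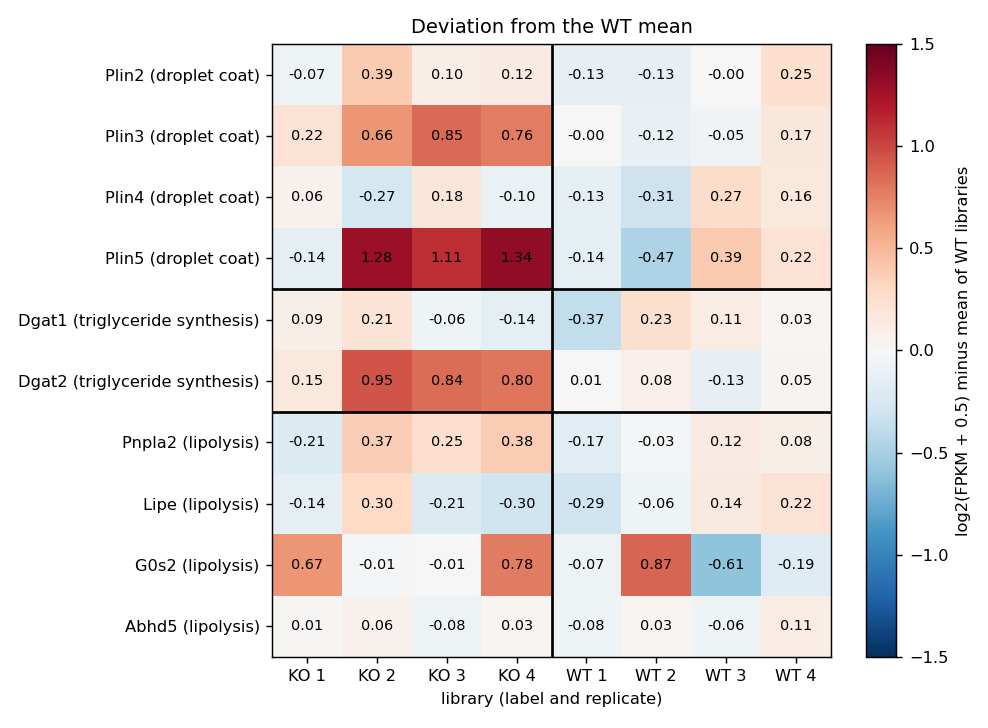
Each cell is the log2(FPKM + 0.5) of a gene in 1 library minus the mean of the 4 libraries labelled WT, with red above and blue below it. KO replicates 2 to 4 reach 1.11 to 1.34 for Plin5 and 0.80 to 0.95 for Dgat2, while KO replicate 1 has -0.14 and 0.15.

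In triglyceride synthesis, Dgat2 stood higher without overlap between the groups, and the groups overlapped for Dgat1. Both enzymes join a fatty acid to diacylglycerol, and they belong to unrelated protein families. Dgat2 stood at 53.6, 93.3, 86.8 and 84.3 FPKM in KO replicates 1 to 4, against 48.3, 50.8, 44.0 and 49.7 FPKM in WT replicates 1 to 4. The groups did not overlap, with KO replicate 1 nearest to the libraries labelled WT. Of the 10 genes, Dgat2 and Plin3 were higher without overlap (2 of 10), as were 3.89% of all genes tested. Dgat2 averaged 79.5 ± 17.7 FPKM in the libraries labelled KO and 48.2 ± 2.96 FPKM in those labelled WT (SD, n = 4). On the log2 scale it was 0.69 higher (SE 0.16, limma adjusted p = 0.336), and 0.86 without KO replicate 1 (adjusted p = 0.00647).

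Dgat1 stood at 13.2, 14.3, 11.8 and 11.1 FPKM in KO replicates 1 to 4, against 9.40, 14.6, 13.4 and 12.6 FPKM in WT replicates 1 to 4. The libraries labelled KO lay within the WT range. The log2 fold change was 0.02, with a 95% interval of -0.29 to 0.34 (limma adjusted p = 0.969), and 0.00079 without KO replicate 1 (adjusted p = 0.999). Dgat2 made up 85.8 ± 3.78% of the summed Dgat1 and Dgat2 FPKM in the libraries labelled KO and 79.5 ± 3.11% in those labelled WT (SD, n = 4).

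Among the lipolysis genes, none passed in either comparison. Pnpla2 stood at 107, 160, 147 and 160.7 FPKM in KO replicates 1 to 4, against 110, 121, 135 and 131 FPKM in WT replicates 1 to 4. KO replicates 2 to 4 exceeded every library labelled WT, and KO replicate 1 was below all of them. The log2 fold change was 0.20, with a 95% interval of -0.11 to 0.51 (limma adjusted p = 0.672). Without KO replicate 1 it was 0.33 (adjusted p = 0.145). Lipe stood at 17.5, 23.9, 16.7 and 15.6 FPKM in KO replicates 1 to 4, against 15.7, 18.5, 21.3 and 22.6 FPKM in WT replicates 1 to 4. The groups overlapped over most of their range, with a log2 fold change of -0.09 and a 95% interval of -0.44 to 0.26 (limma adjusted p = 0.880), and -0.07 without KO replicate 1 (adjusted p = 0.904). Its row was the higher of 2 under that name.

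The partners of ATGL varied very differently among themselves. Abhd5, the activator, varied least of the 10 genes among the libraries labelled KO, at 22.8, 23.6, 21.4 and 23.1 FPKM in KO replicates 1 to 4, against 21.4, 23.0, 21.6 and 24.5 FPKM in WT replicates 1 to 4. Its coefficient of variation was 4.15% in the libraries labelled KO and 6.37% in those labelled WT. The difference was a log2 fold change of 0.01 with a 95% interval of -0.15 to 0.16 (limma adjusted p = 0.980), and 0.01 without KO replicate 1 (adjusted p = 0.984). G0s2, the inhibitor, stood at 78.3, 48.7, 48.9 and 84.8 FPKM in KO replicates 1 to 4, against 46.8, 90.1, 32.0 and 43.1 FPKM in WT replicates 1 to 4. High and low libraries occurred under both labels, with coefficients of variation of 29.3% in the libraries labelled KO and 48.2% in those labelled WT. The log2 fold change of G0s2 was 0.36, with a 95% interval of -0.36 to 1.07 (limma adjusted p = 0.744). It depended on single libraries, at 0.65 without WT replicate 2 (limma adjusted p = 0.515), 0.15 without WT replicate 3 (adjusted p = 0.914) and 0.22 without KO replicate 4 (adjusted p = 0.854). Leaving out KO replicate 1 gave 0.25 (limma adjusted p = 0.806).

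**Figure D3:**
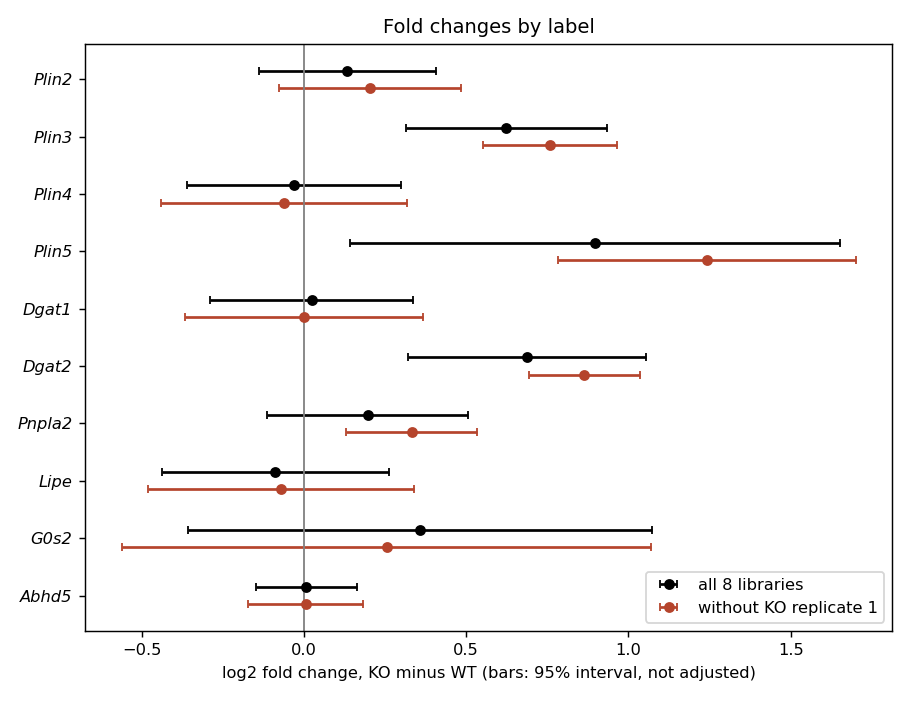
Log2 fold changes (horizontal axis, KO minus WT by label) with unadjusted 95% intervals from limma, for all 8 libraries in black and without KO replicate 1 in red. With all libraries only the intervals of Plin3, Plin5 and Dgat2 lie above 0, and leaving out KO replicate 1 adds Pnpla2.

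The genes were also set side by side by role, as a description with no test between roles. Each mean mixes unlike members: Plin3 and Plin5 with Plin2 and Plin4, Dgat2 with Dgat1, and Pnpla2 with its inhibitor G0s2. The mean log2 deviation of the 4 coat genes from their WT mean was 0.02, 0.52, 0.56 and 0.53 in KO replicates 1 to 4, and -0.25 to 0.20 in the libraries labelled WT. For the 2 synthesis genes it was 0.12, 0.58, 0.39 and 0.33 in KO replicates 1 to 4, and -0.18 to 0.16 in the libraries labelled WT. For the 4 lipolysis genes it was -0.01 to 0.22 in the libraries labelled KO and -0.15 to 0.20 in those labelled WT. The coat and synthesis means of KO replicates 2 to 4 lay above the WT range, and the lipolysis means overlapped.

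FPKM allow levels to be compared between genes per length. Pnpla2 was the highest of the 10 genes in every library, at 144 ± 25.3 FPKM in the libraries labelled KO and 124 ± 11.2 FPKM in those labelled WT (SD, n = 4). In the libraries labelled WT, Plin4 (56.4 ± 10.4 FPKM), G0s2 (53.0 ± 25.5) and Dgat2 (48.2 ± 2.96) followed, and their ranges overlapped. Next came Plin2 (24.0 ± 3.18 FPKM), Abhd5 (22.6 ± 1.44), Plin3 (22.1 ± 1.98) and Lipe (19.5 ± 3.07), which also overlapped. Dgat1 (12.5 ± 2.22 FPKM) and Plin5 (11.5 ± 3.07) were lowest, with overlapping ranges. In the libraries labelled KO, Dgat2 was second by mean, and the mean of Plin5 stood above those of Abhd5 (22.7 ± 0.942 FPKM), Lipe (18.4 ± 3.75) and Dgat1 (12.6 ± 1.43).

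Ratios of 2 genes within a library do not depend on how libraries are scaled, and 5 were compared by two-sided exact permutation over the 70 assignments of the 8 libraries. Dgat2 over Dgat1 had a log2 ratio of 2.58 ± 0.410 in the libraries labelled KO and 1.92 ± 0.275 in those labelled WT (SD, n = 4, difference 0.66, exact permutation p = 0.0571, adjusted p = 0.214). It was highest in KO replicates 2 to 4, and KO replicate 1 lay within the WT range. Plin5 over Pnpla2 had -2.71 ± 0.421 in the libraries labelled KO and -3.41 ± 0.306 in those labelled WT (difference 0.70, exact permutation p = 0.0857, adjusted p = 0.214). Lipe over Pnpla2 differed by -0.28 (exact permutation p = 0.229, adjusted p = 0.381) and Abhd5 over Pnpla2 by -0.19 (exact permutation p = 0.343, adjusted p = 0.429). Pnpla2 over G0s2 differed by -0.16 (exact permutation p = 0.800, adjusted p = 0.800), but by 0.08 without KO replicate 1 and by 0.08 without WT replicate 3. The smallest p this design can give is 0.0286 before adjustment. A single ratio at that p could not pass the adjustment over 5 ratios, and none of the 5 ratios passed. Without KO replicate 1 the differences were 0.86 for Dgat2 over Dgat1, 0.91 for Plin5 over Pnpla2, -0.40 for Lipe over Pnpla2 and -0.33 for Abhd5 over Pnpla2. Each of these 4 then had an adjusted p of 0.0714 by exact permutation of 3 libraries against 4, so no ratio passed there either. That comparison has fewer assignments still, so not passing says little about a difference.

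**Figure D4:**
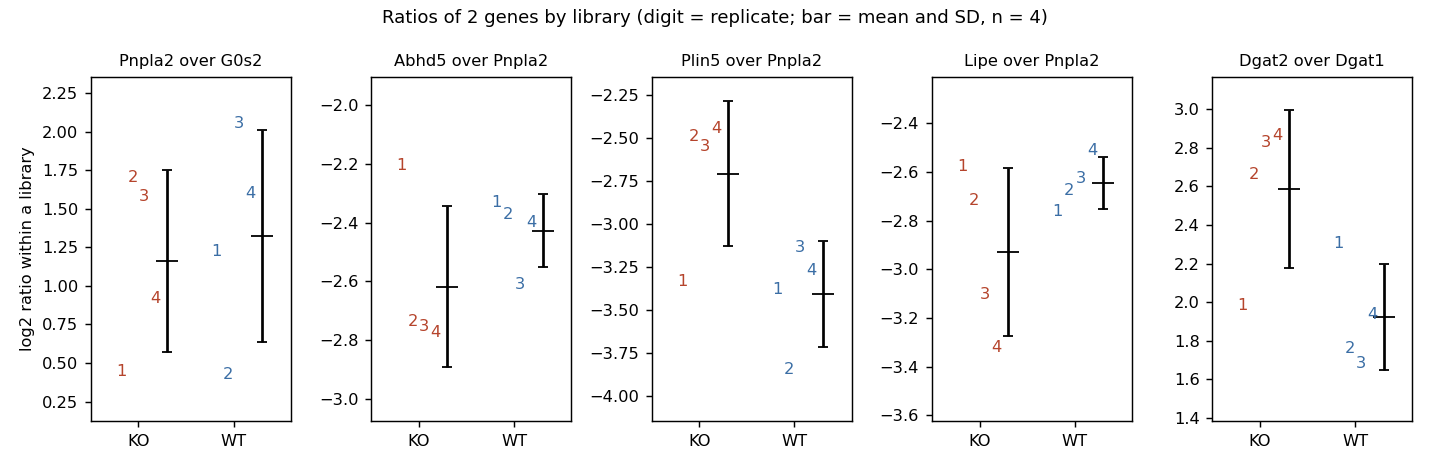
Log2 ratios of 2 genes within each library (vertical axes, not from 0), with digits for replicates and bars for mean and SD. KO replicates 2 to 4 lie together above the WT range for Plin5 over Pnpla2 and Dgat2 over Dgat1 and below it for Abhd5 over Pnpla2, apart from KO replicate 1.

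Some of the genes are neighbours or share ground with other genes. Plin4 (chromosome 17, 56100591 to 56109803), Plin5 (56111601 to 56117596) and Plin3 (56277476 to 56292873) lie close together on the minus strand of GRCm38, and of these Plin4 had its libraries labelled KO within the WT range. G0s2 (chromosome 1, 193272161 to 193273217) lies within the span of Lamb3 on the opposite strand, and the strand setting of the counting is not given in the sources used here. Lamb3 stood at 2.57 to 8.34 FPKM in the libraries labelled KO and 1.71 to 3.33 FPKM in those labelled WT. Abhd5 (chromosome 9, 122351608 to 122381524) overlaps the antisense RNA A730085K08Rik by 950 bases. That RNA stood at 5.82 to 6.99 FPKM in the libraries labelled KO and 6.33 to 7.64 FPKM in those labelled WT. Lipe lies wholly within the antisense RNA 4732471J01Rik, which stood at 0.953 FPKM or less in every library. How these neighbours bear on the values was not tested. Dgat2 lies on chromosome 7 (99153658 to 99182719), as do Pnpla2 (141455198 to 141460743) and Lipe (25379527 to 25398710). Dgat1 is on chromosome 15 (76502015 to 76511953) and Plin2 on chromosome 4 (86648386 to 86670060).

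PPAR receptors, which sense fatty acids and are known to drive several droplet genes, bind with RXR as a pair to 2 copies of AGGTCA set 1 base apart. RefSeq promoter windows of GRCm38.p6, from 250 bases before to 50 after a start, were available for 8 of the 10 genes (10 windows) and searched on both strands. None was available for Dgat1 or Dgat2, so these were not searched. The full repeat AGGTCANAGGTCA occurred in none of the 10 windows and in 0.0396% of the 32851 windows of the genome. A single AGGTCA occurred in 4 of the 10 windows, those of Plin2, Abhd5 and both of Plin5, and in 16.3% of all windows. The stretches before the starts of these genes are shown 5′ to 3′ on the strand of the gene because they hold it, and capitals mark the AGGTCA or its complement. They are chr17:56117597-56117798 (minus strand), chr4:86670061-86670309 (minus strand) and chr9:122351366-122351607 (plus strand).
Plin5: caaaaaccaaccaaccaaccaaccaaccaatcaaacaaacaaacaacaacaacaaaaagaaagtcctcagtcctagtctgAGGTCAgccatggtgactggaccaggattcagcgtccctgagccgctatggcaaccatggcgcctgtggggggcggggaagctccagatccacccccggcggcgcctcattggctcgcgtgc
Plin2: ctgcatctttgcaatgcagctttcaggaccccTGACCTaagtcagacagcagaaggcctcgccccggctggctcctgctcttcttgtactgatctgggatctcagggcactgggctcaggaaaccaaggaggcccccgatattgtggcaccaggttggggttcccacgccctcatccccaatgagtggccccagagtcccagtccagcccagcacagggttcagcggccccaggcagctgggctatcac
Abhd5: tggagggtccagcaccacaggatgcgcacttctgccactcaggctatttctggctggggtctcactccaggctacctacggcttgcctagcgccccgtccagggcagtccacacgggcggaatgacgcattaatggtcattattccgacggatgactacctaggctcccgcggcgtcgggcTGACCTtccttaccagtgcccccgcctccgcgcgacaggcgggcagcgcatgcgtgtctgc
The letters begin 170 bases before the RefSeq start of Plin5, 218 before that of Plin2 and 69 before that of Abhd5. Those starts lie within the genes as placed above, so the printed stretches stop short of them. A second window of Plin5, at a start further inside the gene, also held the letters. Of these 3 genes Plin5 stood higher in KO replicates 2 to 4, while Plin2 and Abhd5 overlapped between the labels. Plin3 stood higher with none of these letters in its window, but that window (56290462 to 56290761) lies wholly inside the gene as placed above. How the letters bear on the levels was not tested.

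Markers of the cells in the sample were set beside the genes, because whole muscle holds fat cells and fibres of several types. In bulk tissue, fewer cells of a type and less RNA per cell cannot be told apart. Of 15 adipocyte markers 14 were tested and 0 passed, with a median log2 fold change of -0.40 and 4 above 0. Their summed FPKM was 955 to 1484 in the libraries labelled KO and 1187 to 1570 in those labelled WT, and none was at 0 in every library. Adipoq, the adipocyte hormone adiponectin, averaged 26.6 FPKM in the libraries labelled KO and 38.5 FPKM in those labelled WT (limma adjusted p = 0.474). The 12 slow and oxidative fibre markers, none of which passed, had 11 log2 fold changes above 0 and a median of 0.69. They ran from -0.09 for Myh7, in a row that joins it with Myh6, to 1.33 for Myh2. Tnni1 was at 0.27, Tnnc1 at 0.17 and Atp2a2 at 0.15. The summed FPKM of these markers is given above, and it was high in the same 3 libraries as Plin5 and Dgat2. Mb was its largest part, averaging 3549 FPKM in the libraries labelled KO and 1735 FPKM in those labelled WT. The part of the markers in the differences was not tested.

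The relation of each gene to the slow and oxidative and to the adipocyte markers was then computed within the labels. After each group was centred, the highest r was that of Plin5 with the mean level of the slow and oxidative markers over the 8 libraries (Pearson r = 0.963, exact permutation p = 0.0122, adjusted p = 0.243 over 20 relations; Spearman rho = 0.810, exact permutation p = 0.0347). Without KO replicate 1 and WT replicate 2, the libraries farthest from the median, r was 0.686. Plin3 (r = 0.848, exact permutation p = 0.0608, adjusted p = 0.313; rho = 0.571, exact permutation p = 0.141) and Pnpla2 (r = 0.841, exact permutation p = 0.0781, adjusted p = 0.313; rho = 0.714, exact permutation p = 0.0625) had the next highest r. Without those libraries r was 0.131 for Plin3 and 0.599 for Pnpla2, so that of Plin3 rested on them. Dgat2 had r = 0.689 with the slow and oxidative markers (exact permutation p = 0.245, adjusted p = 0.587), with rho = 0.357 (exact permutation p = 0.373). Its r was -0.049 without those libraries, so it rested on them too. Against the adipocyte markers the highest r was that of Dgat1 (0.703, exact permutation p = 0.0417, adjusted p = 0.313; rho = 0.524, exact permutation p = 0.220), followed by Lipe (0.573, exact permutation p = 0.205, adjusted p = 0.587; rho = 0.690, exact permutation p = 0.0990). Without KO replicates 1 and 4, the farthest from the median of that score, these were 0.818 and 0.745, but the order changed. Abhd5 then had the highest r (0.876, against 0.427 over all 8 libraries), and that of Pnpla2 turned to 0.661, against -0.409 over all 8. None of the 20 relations passed after adjustment, whereas 7 did after rescaling to TPM. That rescaling divides every gene of a library, markers included, by the summed FPKM of its named genes. The sum was 1679478 in KO replicate 4 and 1124387 in WT replicate 3, against 620662 to 718560 in the other libraries. Gene and marker score can move together through this divisor, so the 7 are not read as relations.

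**Figure D5:**
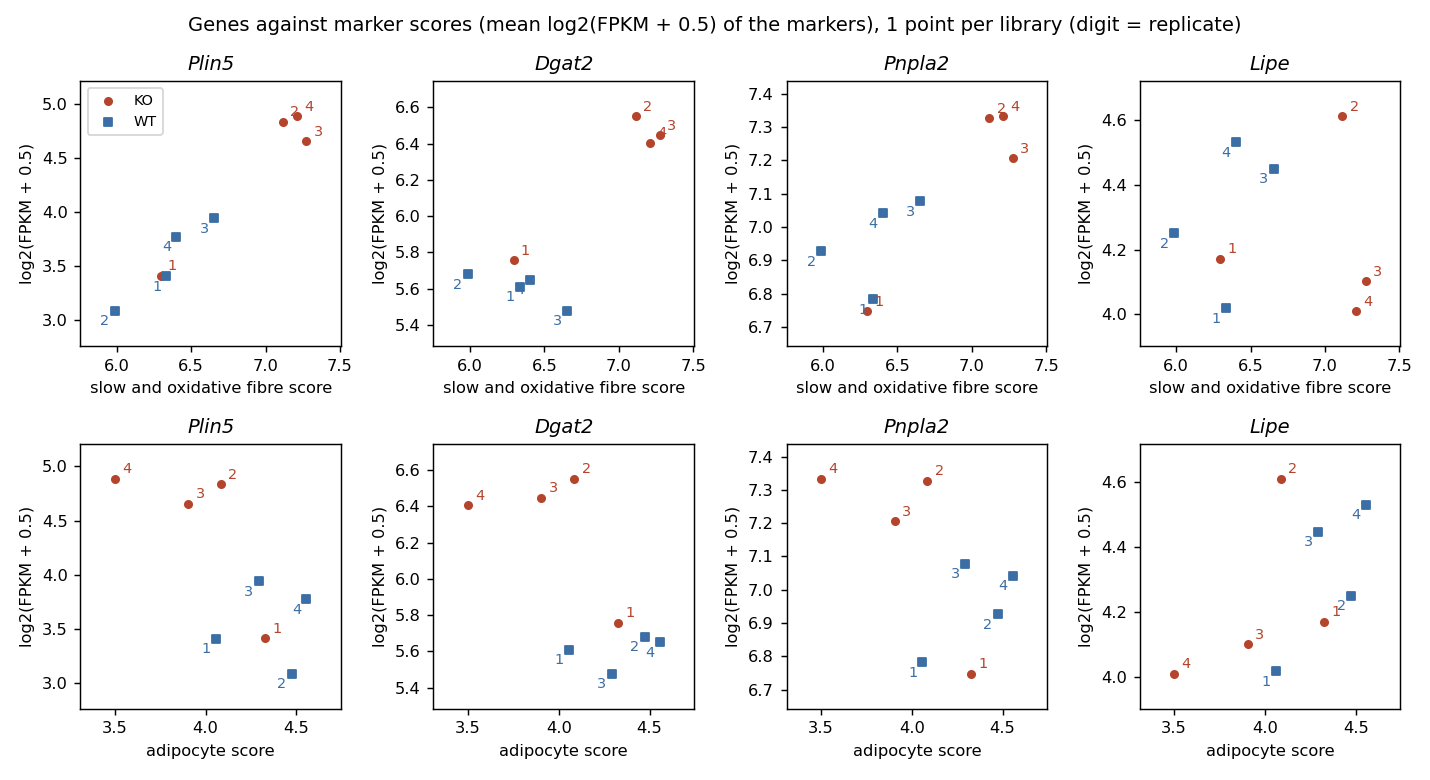
Log2(FPKM + 0.5) of 4 of the genes (vertical axes) against the mean log2(FPKM + 0.5) of slow and oxidative fibre markers (upper row) and adipocyte markers (lower row), with 1 point per library. Plin5, Dgat2 and Pnpla2 are highest in KO replicates 2 to 4, which have the highest slow and oxidative scores, while the score of KO replicate 1 lies in the WT range. With each group centred, r of Dgat2 with that score was 0.689, and -0.049 without KO replicate 1 and WT replicate 2.

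The genes whose level went most closely with each, over the 8 libraries with each group centred, are given as a description. They were picked for the highest r among the 11878 genes tested, so r is high by selection. KO replicate 1 was the lowest library labelled KO for Plin3, Plin5, Dgat2 and Pnpla2. No r given here was computed again without it. For Plin5 they were Acsl1, which activates long fatty acids (r = 0.994), a row that joins Xist with predicted genes (0.991) and the sarcomere gene Myom3 (0.990). For Dgat2 they included Phyh, a peroxisomal enzyme of branched fatty acids (0.988), and the complex III subunit Uqcrc2 (0.976). For Plin3 they were Hsd17b4 of peroxisomal beta-oxidation (0.966), Erich1 (0.966) and Khdrbs3 (0.965). For Pnpla2 they were Arhgef15 (0.984), the muscle protein Csrp3 (0.981) and the carnitine carrier Slc25a20 (0.980). For Lipe they were Ctla2a (0.981), the fatty acid binding protein Fabp4 of adipocytes and endothelium (0.966) and Lat2 (0.962). For Abhd5 they were Phldb1 (0.995), Hoxc9 (0.982) and Supv3l1 (0.972). Of the other genes, Plin2 went most with Fam195a (0.991), Plin4 with Hsd17b7 (0.965), Dgat1 with Tnfsf9 (0.991) and G0s2 with Gm13601 (0.955). Among the 10 genes the highest r was that of Plin5 with Pnpla2 (0.931), then Plin5 with Plin3 (0.840) and Dgat2 with Plin3 (0.830).

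The rest of the pathway showed no called gene in the comparison of all 8 libraries. Of other genes of triglyceride synthesis 18 were tested, with 8 above 0 and a median log2 fold change of -0.01. Mogat2, a monoacylglycerol acyltransferase, had 2.94, 4.44, 7.84 and 8.59 FPKM in KO replicates 1 to 4, against 0.0857, 4.51, 0.0612 and 0.525 FPKM in WT replicates 1 to 4. WT replicate 2 lay among the libraries labelled KO, and the log2 fold change was 2.39 (limma adjusted p = 0.347). Acsl1 had a log2 fold change of 0.41 (adjusted p = 0.613) and Gpam, the acyltransferase of the first step, one of 0.19 (adjusted p = 0.654).

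Of other droplet proteins 15 were tested, with 5 above 0 and a median log2 fold change of -0.03. Plin1, the perilipin of fat cells, averaged 9.30 ± 4.46 FPKM in the libraries labelled KO and 14.8 ± 3.17 FPKM in those labelled WT (SD, n = 4, log2 fold change -0.73, limma adjusted p = 0.450). Cidec, which fuses droplets in fat cells, had a log2 fold change of -0.30 (adjusted p = 0.623) and Fitm2, which helps droplets to bud, one of 0.21 (adjusted p = 0.593). None of these passed without KO replicate 1 either.

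Of other lipolysis genes 16 were tested, with 9 above 0 and a median log2 fold change of 0.04. Fabp3, which carries fatty acids in muscle fibres, had 395, 1176, 1101 and 1217 FPKM in KO replicates 1 to 4, against 367, 433, 640 and 463 FPKM in WT replicates 1 to 4. KO replicates 2 to 4 exceeded every library labelled WT and KO replicate 1 did not. Its log2 fold change was 0.93 (limma adjusted p = 0.431), and 1.32 without KO replicate 1 (adjusted p = 0.0158). Ces1d, a triglyceride hydrolase, had a log2 fold change of -0.45 (adjusted p = 0.484), and -0.66 without KO replicate 1 (adjusted p = 0.0470). Pnpla3, a relative of ATGL, had one of -0.66 (adjusted p = 0.431). KO replicate 1 was the lowest library labelled KO for Fabp3 and the highest for Ces1d, at 81.3 FPKM. It was singled out from these same data, so passing without it is no independent support. In that comparison 0.951% of all genes were called higher and 0.101% lower.

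Of 13 regulators tested, 7 were above 0, with a median log2 fold change of 0.07, and 0 passed in either comparison. Esrra, a nuclear receptor of oxidative metabolism, averaged 63.4 ± 3.31 FPKM in the libraries labelled KO and 54.6 ± 2.196 FPKM in those labelled WT (SD, n = 4, log2 fold change 0.21, limma adjusted p = 0.353). Nr1h3, the liver X receptor alpha, had a log2 fold change of 0.19 (adjusted p = 0.588) and Srebf1, which drives lipid synthesis, one of -0.27 (adjusted p = 0.607).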

How the data were processed

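RNA of 8 quadriceps muscles was sequenced to a stated 50 M read pairs of 150 bases, per the labels. The authors deposited FPKM per gene, 1 table per library, per the file headers. The submitters' processing notes name TopHat2 2.1.1, Bowtie2 2.2.6, Cufflinks 2.2.1 and mm10 without roles. The annotation, strand setting and filters are not given in the sources used here. Tables held 46036 entries. Entries without a name (2379, with 65.8% to 93.2% of all FPKM in a library) were left out. The highest-mean row was used for the 344 names on several entries.

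The 11878 genes averaging 1 FPKM or more across all 8 libraries were compared as log2(FPKM + 0.5) with limma 3.58.1 in R 4.3.3 (genotype label alone, variances with a mean trend, two-sided), with Benjamini-Hochberg adjustment over all of them at 0.05. A fold change on this scale understates that of low genes. Single values had exact permutation tests. For relations with marker scores, libraries were permuted within groups (576 orders). The fit was tested on simulated data. Depth was sought between 25 and 100 M fragments, as FPKM times transcript length less 200 bases, so it is rough and limited by those bounds. No counting interval is given.

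Alternatives were other pseudocounts (0.1 and 1), filters, scalings, summed repeated rows, robust and weighted fits, a replicate block, and leaving out single libraries. The named genes were all 10 members and, of each other pathway list, those called and the 3 with the smallest p. The members and lists were chosen with earlier results of these data known. Genes were placed with GENCODE M21 (GRCm38), and promoter sequences are from RefSeq (GRCm38.p6). Names that the files do not hold in the listed spelling, such as Acta1 and Ldah, were not analysed here.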

Additional observations from a re-analysis of the deposited data

Results flagged for a closer look

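Of 44 groups of 4 libraries examined (the 10 genes, the 5 ratios and the 7 summed marker lists, under each label), 3 held a library far from the other 3, where chance gives about 1 in 20. All 3 were KO replicate 1. Its log2 ratio of Abhd5 over Pnpla2 was -2.21, against -2.77 to -2.74 in KO replicates 2 to 4. Its log2 ratio of Plin5 over Pnpla2 was -3.34, against -2.55 to -2.45. Its summed FPKM of slow and oxidative fibre markers was 2974, against 6329 to 6892.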

How the results depend on the processing

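Of 190 log2 fold changes of the 10 genes under 19 alternatives, 170 kept their direction and their side of the threshold, 3 passed it (Plin3, Plin5 and Dgat2 without KO replicate 1) and 17 turned sign. With TPM the overall median was -0.18 in place of 0.02, and the sign turned for Plin2 (-0.0754), Dgat1 (-0.178), Pnpla2 (-0.0175) and Abhd5 (-0.201). Plin3, Plin5 and Dgat2 stood at 0.41, 0.69 and 0.47 there. Abhd5 was -0.0245 with quantile normalization, -0.0165 with median of ratios and -0.00225 with array weights, and Dgat1 -0.000361 with median of ratios. With single libraries left out, Abhd5 ran from -0.0188 to 0.0455, Dgat1 from -0.102 to 0.102, G0s2 from 0.155 to 0.647 and Plin4 from -0.133 to 0.0609. The count of the 10 genes called ran from 0 to 3. Over all genes 4 to 113 were called higher and 0 to 12 lower with single libraries left out, and 63 and 56 after rescaling to TPM. With robust variances, array weights or a mean of at least 5 FPKM, 1 was called lower. With the replicate block 0 were called higher, with 709 higher and 249 lower at an unadjusted p under 0.05, and 0 of the 10 genes passed. Libraries of the same number did not deviate together (r from -0.0809 to 0.00933, against -0.156 to 0.133 for different numbers). These values show no pairing by number but cannot exclude one. The ratio of Pnpla2 over G0s2 ran from -0.461 to 0.0820 (0.0773 without KO replicate 1). The other 4 ratios kept their direction with single libraries left out, and none passed there (lowest exact permutation adjusted p = 0.0714). The few assignments make passing hard there. Lipe over Pnpla2 ran from -0.402 to -0.154 and Abhd5 over Pnpla2 from -0.326 to -0.137. After rescaling to TPM, where genes and markers share a divisor, 7 of the 20 relations with markers passed. The shift of the fold changes with TPM follows from that shared divisor, which was highest in KO replicate 4 and WT replicate 3. The cause of those high sums and of the other shifts was not tested. Without counts, depth sets no interval on the low values.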

Other observations

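A second row named Lipe, at the same locus, held 0.288, 0.126, 0.576 and 1.57 FPKM in KO replicates 1 to 4 and 0.449, 0.743, 0.882 and 0.372 FPKM in WT replicates 1 to 4, low under both labels. The summed FPKM of 5 haemoglobin and red cell markers was 652 to 3171 in the libraries labelled KO, highest in KO replicate 1, and 509 to 1334 in those labelled WT. Endothelial markers summed to 126 to 216 FPKM in the libraries labelled KO and 122 to 157 in those labelled WT. Macrophage markers summed to 301 to 454 FPKM in the libraries labelled KO and 268 to 381 in those labelled WT, and fibroblast markers to 1286 to 1859 and 1681 to 1896 FPKM in the libraries labelled KO and WT. None of the tested markers of these lists passed with limma.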
